A study of Homo sapiens with 2 samples.

Results

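Cadherins and protocadherins are the genes whose names follow the cadherin pattern (CDH and a number) or the protocadherin patterns (PCDH and a number, or PCDHA, PCDHB and PCDHG for the clustered genes) and that have at least 1 protein-coding RefSeq transcript record in the deposited files. PCDH11Y was left out. The rule took 87 of 26370 gene names, of which 23 were cadherins and 64 protocadherins, and 53 of the protocadherins belonged to the alpha, beta and gamma clusters. The members were chosen by name and not by any measured value.

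The libraries came from CHME3, a human line of immortalised cells that carries the label microglia, used at passages 4 to 6. The treated library was made from CHME3 cells exposed to a drug of the class muscarinic receptor antagonists at 5 µg/ml, which the labels call the EC50. The untreated library was made from CHME3 cells without the drug. The labels name neither the compound nor the time of exposure, and no genetic change was labelled in either group. With 1 library in each group, no difference between conditions could be tested, and every interval below covers counting error between these 2 libraries only.

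Classical cadherins are calcium-dependent adhesion proteins that bind cadherins on the next cell through their outer domains and bind p120 and beta-catenin through their tails, which alpha-catenin links to actin. Type I and type II classical cadherins differ in the part that inserts into the partner molecule, and which of them a cell makes is widely used to describe its adhesive state: E-cadherin (CDH1) marks epithelia and N-cadherin (CDH2) marks mesenchymal and neural cells. Clustered protocadherins are made from arrays of alternative first exons, each with its own promoter. In the alpha and gamma clusters every first exon is spliced to the same constant exons, whereas beta genes are typically single-exon genes without a shared end. They are best known for giving neurons distinct surface identities.

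Levels are given in FPKM, fragments scaled to transcript length and to sequencing depth, summed over the records of a gene. The sequenced depth estimated from the deposited bounds was 7295668 fragments in the treated library and 6702732 in the untreated library. Across all 11668 genes whose mean reached 1 FPKM, the median of log2((treated FPKM + 1)/(untreated FPKM + 1)) was 0.00, with quartiles of -0.10 and 0.11. Markers of the labelled cell type were mostly low. Of 16 microglia and myeloid genes 3 passed 1 FPKM and 9 were listed at 0 in both libraries, among them PTPRC and AIF1. CD68 and CD14 were at 12.6 and 1.63 FPKM treated and at 15.7 and 1.97 FPKM untreated. Of 15 mesenchymal genes 9 passed, with sums of 6266 FPKM treated and 5768 untreated. Another 4, COL3A1, LUM, DCN and POSTN, were listed at 0 in both libraries. COL1A2 and PDGFRA were under 1 FPKM in both, with COL1A2 at 0.157 FPKM treated and 0.196 untreated. FN1, VIM, COL1A1 and TAGLN were at 3021, 2025, 545 and 498 FPKM treated and at 2725, 1967, 499 and 397 FPKM untreated. Of 14 epithelial genes 5 passed, with sums of 281 FPKM treated and 262 untreated, most of it the keratin gene KRT18, at 262 FPKM treated and 241 untreated. KRT8, CLDN4, ELF3 and OCLN were at 14.2, 1.49, 1.48 and 1.05 FPKM treated and at 13.5, 1.70, 1.69 and 1.45 FPKM untreated, and EPCAM was at 0.178 FPKM treated and 0.504 untreated. Of 11 endothelial genes ROBO4 passed, at 1.61 FPKM treated and 1.77 untreated, with sums of 2.40 FPKM treated and 2.90 untreated, and of 14 neural genes L1CAM and TUBB3 passed, at 84.7 and 29.9 FPKM treated and at 80.4 and 29.3 FPKM untreated.

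Few of the cadherins and protocadherins reached 1 FPKM. A mean over the libraries of 1 FPKM or more was reached by 7 of the 87 members (8.05%), against 57.2% of the 19230 genes with a protein-coding record. These were, from the highest mean, PCDHGC3, CDH2, CDH13, CDH24, PCDHGA11, CDH4 and CDH3. Another 3 members lay between 0.5 and 1 FPKM, 14 between 0.1 and 0.5 FPKM, and 63 under 0.1 FPKM. For 42 members the estimated fragments rounded to 0 in both libraries, and 13 of these were listed at 0 FPKM. A level of 3 fragments corresponded to between 0.0376 and 0.184 FPKM, depending on the length of the gene's records, so lower levels were not measurable at this depth. In bulk RNA, fewer cells expressing a gene and less of its RNA per cell cannot be told apart.

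**Figure D1:**
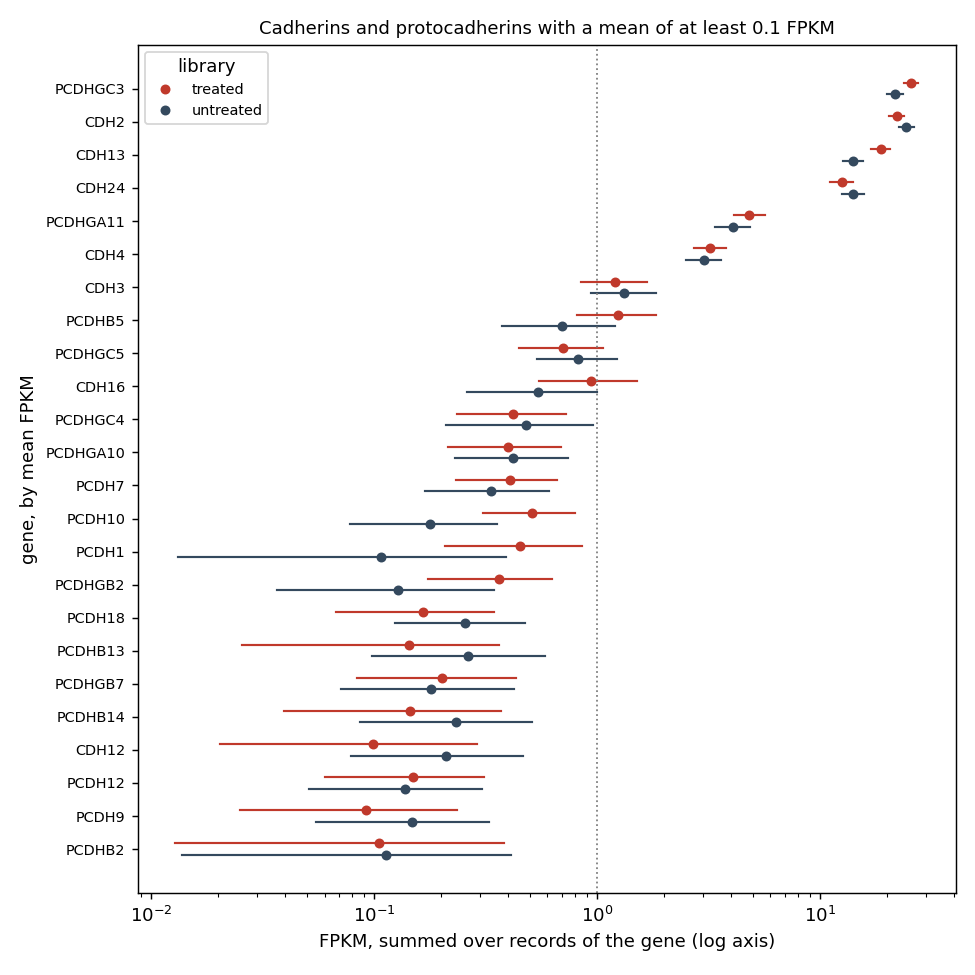
Levels of the members with a mean of at least 0.1 FPKM, on a log axis, with the treated library drawn above the untreated library for each gene. Points are FPKM summed over the records of a gene, lines are 95% exact Poisson intervals on the estimated fragments, and the dotted line stands at 1 FPKM. The 7 genes to its right by mean level run from CDH3 at 1.203 FPKM treated and 1.33 untreated to PCDHGC3 at 25.7 FPKM treated and 21.8 untreated.

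N-cadherin was the highest classical cadherin of this line, and E-cadherin was below what this depth can measure. CDH2, N-cadherin (chromosome 18, 27950963 to 28177446 on hg38, minus strand), was at 22.2 FPKM (95% exact Poisson interval 20.5 to 23.9) from 650 estimated fragments in the treated library and at 24.4 FPKM (22.5 to 26.3) from 649 fragments in the untreated library. Among all genes over 1 FPKM this level stood at percentile 70.8 treated and 72.7 untreated. The intervals of the libraries overlapped, and the FPKM ratio of treated over untreated was 0.909 (95% exact conditional binomial interval 0.814 to 1.02), which includes 1.

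The other type I cadherins were lower by far. CDH4, R-cadherin, first known from retina (chromosome 20, 61252426 to 61940617), was at 3.23 FPKM treated and 3.03 untreated from 147 fragments treated and 127 untreated, a ratio of 1.06 (0.838 to 1.37). CDH3, P-cadherin, of basal epithelial layers (chromosome 16, 68644248 to 68699054), was at 1.203 FPKM treated and 1.33 untreated from 36 fragments treated and 37 untreated, a ratio of 0.907 (0.553 to 1.46). Both intervals include 1. CDH1, E-cadherin, had less than 1 fragment in either library, with 0.00422 FPKM listed treated and 0.00396 untreated, where 3 fragments would have given 0.0888 FPKM treated and 0.0961 untreated. CDH15, M-cadherin, of skeletal muscle, had 1 fragment treated (0.0511 FPKM) and was listed at 0 untreated. None of the 8 skeletal muscle markers passed 1 FPKM. The 5 type I genes together summed to 26.6 FPKM treated and 28.7 untreated, a ratio of 0.927 (0.840 to 1.02).

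Of the 13 type II classical cadherins 1 was over 1 FPKM. CDH24, which has been described as binding catenins like other type II members (chromosome 14, 23047061 to 23057538), was at 12.5 FPKM (11.1 to 14.0) treated and 14.1 FPKM (12.5 to 15.7) untreated, from 298 fragments treated and 311 untreated, a ratio of 0.892 (0.759 to 1.05). The others lay at or below 0.0986 FPKM treated and 0.211 FPKM untreated, the values of CDH12, a brain cadherin, which rested on 3 fragments treated and 6 untreated. CDH5, VE-cadherin of endothelium, was at 0.0693 FPKM treated and 0.112 untreated, from 2 fragments treated and 3 untreated, and the endothelial marker PECAM1 was listed at 0 in both libraries. Among the others, 7 type II genes had estimated fragments that rounded to 0 in both libraries, CDH11, a mesenchymal and osteoblast cadherin, among them. CDH24 thus held nearly all of the type II sum, which was 12.9 FPKM treated and 14.5 untreated, a ratio of 0.888 (0.756 to 1.04).

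Among the remaining CDH genes, CDH13 carried almost the whole level and had the highest log2 ratio of any member over 1 FPKM. CDH13 (chromosome 16, 82626794 to 83796610) encodes T-cadherin, which is held to the membrane by a lipid anchor, has no cytoplasmic tail and binds adiponectin and low-density lipoprotein. Its level was 18.7 FPKM (17.0 to 20.5) treated and 14.1 FPKM (12.6 to 15.6) untreated, from 432 fragments treated and 348 untreated. The FPKM ratio was 1.33 (1.15 to 1.53), a log2 ratio of 0.39 with the pseudocount of 1. The intervals of the libraries did not overlap, but the ratio of fragments per depth was 1.14 (0.988 to 1.32), which includes 1. The records of the gene differed in how they shared the fragments. CDH16, a kidney cadherin, was at 0.937 FPKM treated and 0.543 untreated from 17 fragments treated and 10 untreated. CDH17, CDH23 and CDH26 were at or under 1 fragment in each library.

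The mix of cadherins can be given as shares of the summed FPKM of the 23 CDH genes, which was 59.1 FPKM treated and 57.9 untreated. CDH2 held 37.5% of it treated and 42.1% untreated. CDH13 held 31.6% treated and 24.3% untreated, and CDH24 held 21.2% treated and 24.3% untreated. CDH4 held 5.45% treated and 5.23% untreated, and CDH3 held 2.03% treated and 2.29% untreated. CDH2 had the highest value among CDH genes in both libraries, with an interval that met that of CDH13 in the treated library. The next places were taken by CDH13 and CDH24, which were apart in the treated library but whose intervals overlapped in the untreated library.

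Nonclustered protocadherins, which include regulators of cell sorting and of axon growth, were all under 1 FPKM. The 11 genes summed to 1.87 FPKM treated and 1.18 untreated, from 65 fragments treated and 43 untreated, a ratio of 1.58 (1.06 to 2.39). By fragments per depth the ratio was 1.38 (0.930 to 2.09), which includes 1. PCDH10, a protocadherin that recruits the actin-regulating WAVE complex, was at 0.510 FPKM treated and 0.178 untreated from 19 fragments treated and 8 untreated. Its FPKM ratio was 2.88 (1.19 to 7.51), and its ratio of fragments per depth was 2.21 (0.912 to 5.76), which includes 1. PCDH1, an epithelial adhesion protein, was at 0.452 FPKM treated and 0.108 untreated from 9 fragments treated and 2 untreated, and PCDH7 at 0.407 FPKM treated and 0.335 untreated from 16 fragments treated and 11 untreated. In these 3 genes the treated value was the higher. PCDH18 went the other way, with 0.167 FPKM treated and 0.255 untreated from 7 fragments treated and 10 untreated. These genes were picked after their values were seen, and none is over the floor of 1 FPKM.

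Clustered protocadherin RNA came almost wholly from the gamma cluster on chromosome 5, and there mainly from PCDHGC3. The 22 gamma genes summed to 33.0 FPKM treated and 28.0 untreated, the 16 beta genes to 1.99 FPKM treated and 1.59 untreated, and the 15 alpha genes to 0.0350 FPKM treated and 0.0540 untreated, from 1 fragment treated and 2 untreated. For 13 of the alpha genes the estimated fragments rounded to 0 in both libraries. PCDHGC3, a C-type gamma gene at the end of the array that is expressed in many tissues (chromosome 5, 141476002 to 141512977), was at 25.7 FPKM (23.9 to 27.6) treated and 21.8 FPKM (20.1 to 23.5) untreated, from 733 fragments treated and 627 untreated. It held 73.4% of the clustered protocadherin FPKM in each library, and it was the highest of all 87 members in the treated library but lower than CDH2 in the untreated library, and the intervals of these genes overlapped in each library. The FPKM ratio was 1.18 (1.06 to 1.32), and the ratio of fragments per depth was 1.07 (0.964 to 1.197), which includes 1.

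PCDHGA11, a gamma gene of the A type near the end of the array (chromosome 5, 141420970 to 141512979), was the only other clustered gene with a mean over 1 FPKM. It was at 4.83 FPKM treated and 4.08 untreated from 163 fragments treated and 126 untreated, 13.8% of the clustered FPKM in each library, with a ratio of 1.18 (0.938 to 1.52). PCDHB5, the highest beta gene, was just below the floor, with 1.25 FPKM treated and 0.697 untreated from 25 fragments treated and 13 untreated. Its ratio of 1.79 had an interval of 0.879 to 3.80, which includes 1. PCDHGC5, the other gene just below the floor, was at 0.705 FPKM treated and 0.820 untreated from 23 fragments treated and 25 untreated. Its neighbour PCDHGC4 was at 0.418 FPKM treated and 0.483 untreated, from 14 fragments treated and 8 untreated. By fragments per depth the ratio of PCDHGC4 was 1.56 (0.629 to 4.42), which includes 1 and points the other way. Almost all of its FPKM was on record NM_018928 treated and on the shorter NM_032406 untreated. PCDHGA10 was at 0.398 FPKM treated and 0.418 untreated. Thus 2 of the C-type genes lay more than an order of magnitude under PCDHGC3 although they sit beside it. Beta genes are close copies of each other, so the division of their few fragments among them is uncertain.

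**Figure D2:**
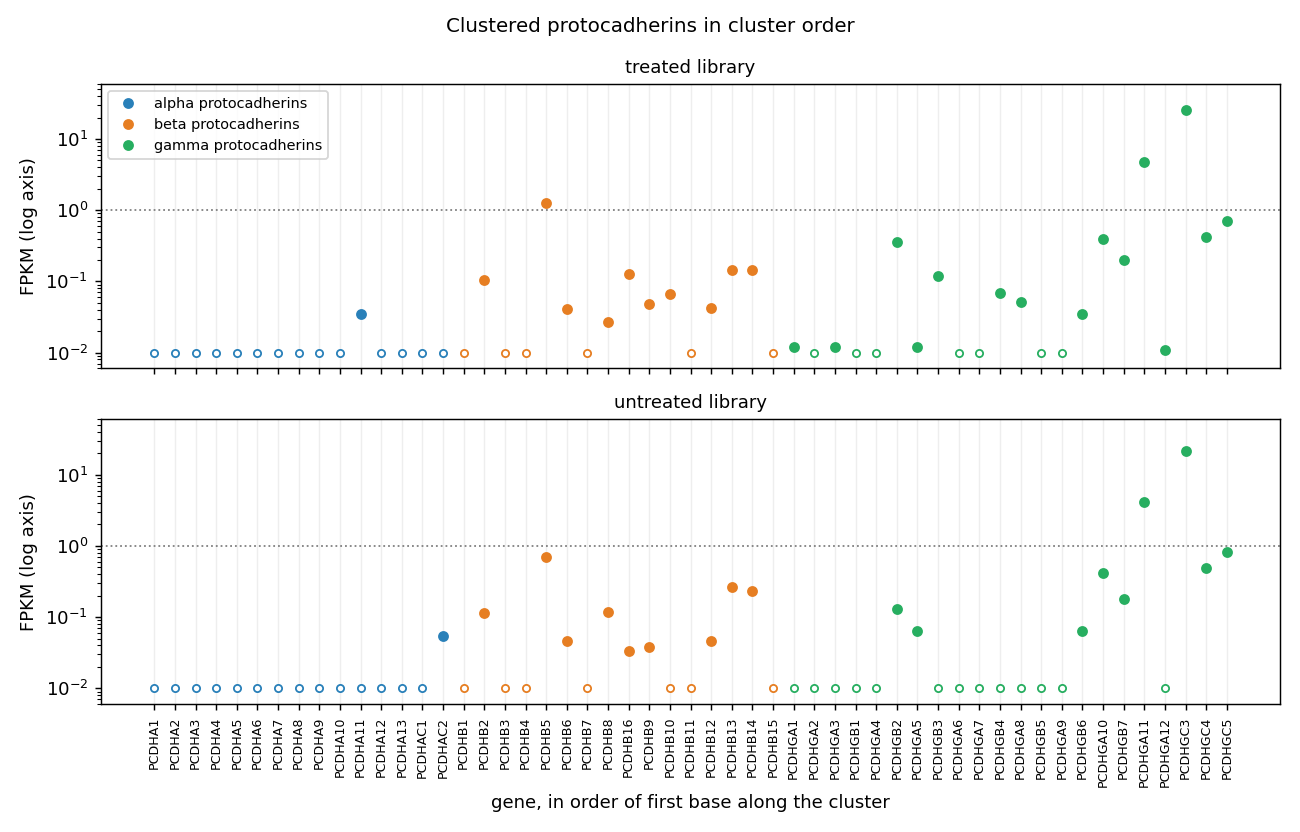
Levels of the 53 clustered protocadherins in the order of their first base along the cluster, on a log axis, with the treated library in the upper panel and the untreated library in the lower. Filled points are FPKM, open circles stand for genes under 0.01 FPKM, and the dotted line is at 1 FPKM. Alpha genes are almost all open circles in both panels, while PCDHGC3 and PCDHGA11 stand at 25.7 and 4.83 FPKM treated and at 21.8 and 4.08 FPKM untreated.

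The reads of gamma genes overlap by construction. The constant exons at chr5:141494807-141494865 and chr5:141505393-141505481 (hg38, plus strand) occur in records of all 22 gamma genes, in 24 of their 46 records, so fragments inside them cannot be assigned to 1 gene by sequence alone. They are shown here, from GENCODE 29 on GRCh38, because every gamma record that reaches them carries the same letters, followed by a longer last exon.
Gamma constant exon at chr5:141494807-141494865: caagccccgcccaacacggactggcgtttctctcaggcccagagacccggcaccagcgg
Gamma constant exon at chr5:141505393-141505481: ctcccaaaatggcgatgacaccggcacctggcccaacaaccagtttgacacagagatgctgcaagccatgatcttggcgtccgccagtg
Exons 2 to 4 make up 46.1% of the 4724 bases of NM_002588, the longer PCDHGC3 record, and 44.8% of the 4872 bases of NM_018914, the main PCDHGA11 record. In NM_032403, the shorter PCDHGC3 record, they make up 93.8% of 2324 bases.

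Each first exon of the gamma cluster has its own promoter. RefSeq (GRCh38.p14) gave a window of 300 bases, 250 before and 50 after the start, for 68 of the 87 members, 85 windows in all. The letters CGCTG, the core of a motif known from clustered protocadherin promoters, were looked for on both strands. They occurred in 25 of 25 gamma windows (20 genes), in 12 of 14 beta windows and in 9 of 13 alpha windows. Among all 35116 windows the share was 48.0%. Outside the clusters they occurred in 7 of 10 windows of nonclustered protocadherins and in 3 of 4 of type I cadherins. For type II cadherins the count was 7 of 14, and for the other CDH genes 2 of 5. The alpha share was thus no higher than those of nonclustered protocadherins and type I cadherins. The 250 bases before the start are shown for PCDHGC3, the highest gamma gene, and for PCDHGA9, which had less than 1 fragment in both libraries. Capitals mark CGCTG on the strand shown.
PCDHGC3 at chr5:141475716-141475965, plus strand: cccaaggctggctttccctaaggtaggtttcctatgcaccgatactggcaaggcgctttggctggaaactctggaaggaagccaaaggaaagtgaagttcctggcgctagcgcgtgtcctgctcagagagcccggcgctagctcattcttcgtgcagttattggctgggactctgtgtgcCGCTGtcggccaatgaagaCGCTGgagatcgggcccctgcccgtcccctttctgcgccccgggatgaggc
PCDHGA9 at chr5:141402528-141402777, plus strand: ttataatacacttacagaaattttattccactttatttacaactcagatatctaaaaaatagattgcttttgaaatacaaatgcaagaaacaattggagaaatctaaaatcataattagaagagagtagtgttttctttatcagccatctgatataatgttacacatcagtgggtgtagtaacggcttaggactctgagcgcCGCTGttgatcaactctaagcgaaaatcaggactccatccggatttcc
Both windows hold the letters, although PCDHGC3 was among the highest members and PCDHGA9 was at 0.00281 FPKM treated and 0 untreated. The full windows of 300 bases differ in composition, with 59.0% G and C and 18 CpG for PCDHGC3 against 37.7% and 7 for PCDHGA9. That of PCDHGA11, the other clustered gene with a mean over 1 FPKM, had 44.3% and 12 CpG. The PCDHGA9 window ends at base 141402827, before the deposited records of that gene begin at 141402953. The PCDHGC3 window ends at 141476015, past the deposited start at 141476002, so these windows are not like for like. The motif was chosen after the windows were read, and a match is no evidence of binding.

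No member differed between the libraries by the rule of size. Of the 7 members over 1 FPKM, 0 reached 2-fold on the log2(FPKM + 1) scale, where 0.660% of all genes over the floor did, and 0 reached 1.5-fold, where 2.23% did. With so few members, counts of 0 are near these backgrounds. Their log2 ratios ran from -0.15 (CDH24) to 0.39 (CDH13) with a median of 0.07, and 4 were above 0 and 3 below. No member under the floor reached 2-fold on this scale either, the pseudocount of which understates ratios of low genes, and the largest absolute value was 0.41, for PCDHB5. Among the 7 members over 1 FPKM, the interval of the FPKM ratio was wholly above 1 for 2, PCDHGC3 and CDH13, as for 6.66% of all genes over the floor, and wholly below 1 for 0, as for 6.16%. Under the floor, only members whose estimated fragments round to at least 1 in each library have an interval. Of these, PCDH10 was the only member whose interval left out 1. The share of such intervals among all genes under the floor was not computed, so this count has no background. By fragments per depth the interval left out 1 for 0 of the 7 in either direction, against 13.2% of all genes over the floor.

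**Figure D3:**
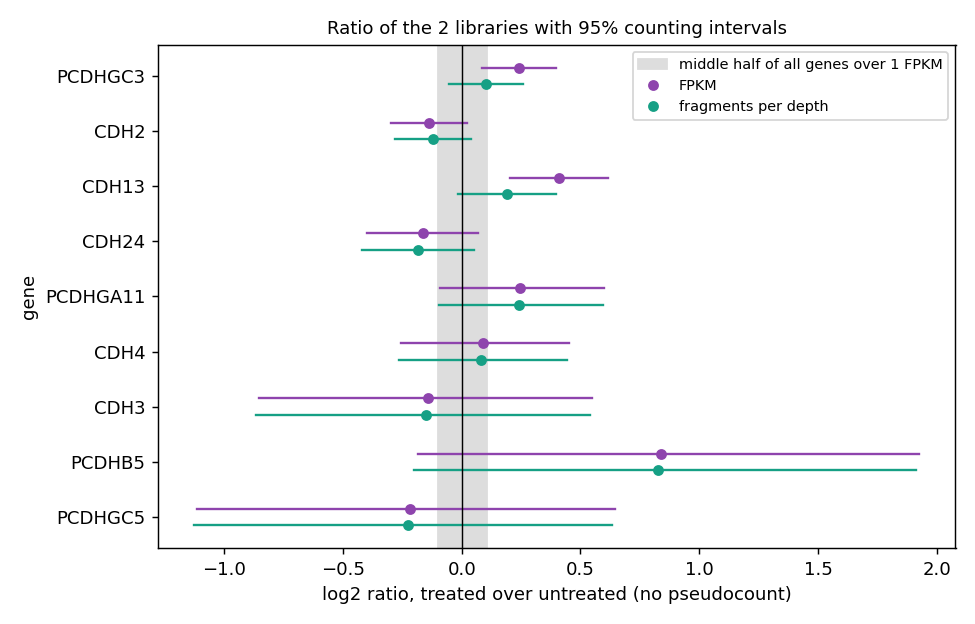
Ratio of the treated over the untreated library, on a log2 scale without pseudocount, for the 7 members over 1 FPKM and the 2 just below. For each gene the upper point is the FPKM ratio and the lower point the ratio of estimated fragments per depth, lines are 95% exact conditional binomial intervals, and the grey band holds the central quartiles of all genes over 1 FPKM (-0.10 to 0.11, with the pseudocount). The FPKM intervals of PCDHGC3 and CDH13 lie above 0, while their intervals by fragments include 0.

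By class, the summed FPKM was higher in the treated library for gamma protocadherins (ratio 1.18, 1.07 to 1.29), for the CDH genes outside types I and II (1.34, 1.16 to 1.54) and for nonclustered protocadherins. By fragments per depth the interval stayed above 1 for gamma protocadherins, 1.103 (1.004 to 1.21), and included 1 for the other CDH genes, 1.15 (0.998 to 1.32), as it did for the nonclustered ones. The interval of the beta sum, 1.25 (0.781 to 2.03), included 1, as did those of both classical types. With each gene represented by its most abundant record alone, the ratio was 0.992 for gamma protocadherins, 1.15 for type I and 1.04 for type II, so the direction of all 3 sums turned with this choice. These ratios rest on how the authors' program divided fragments among the records of a gene.

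The 6 members over 1 FPKM that have several records held 11 records that averaged 1 FPKM or more, and in 3 of them the bounds deposited with the FPKM of the 2 libraries did not overlap, 1 higher and 2 lower in the treated library. Among all 11897 such records of genes with several records, 17.6% did so, 8.90% higher and 8.69% lower. With 11 records, a count of 3 is near this background. The records were those of PCDHGC3, CDH2 and CDH24.

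**Figure D4:**
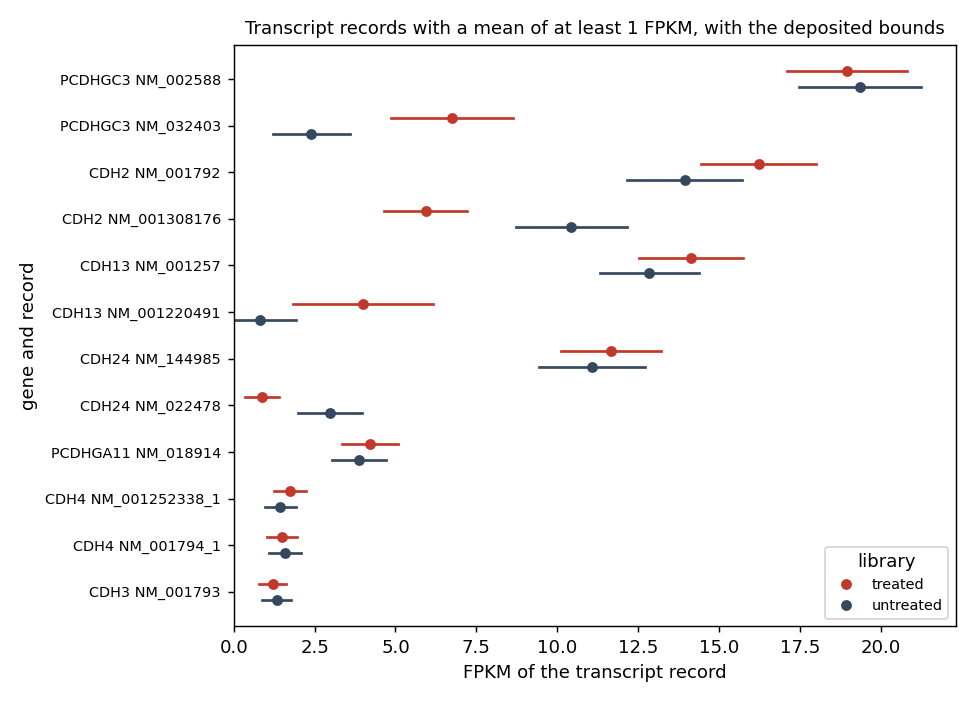
FPKM of each transcript record that averaged 1 FPKM or more, with the bounds deposited by the authors as lines and the treated library above the untreated library. The bounds do not overlap for PCDHGC3 NM_032403 (6.73 FPKM treated, 2.40 untreated), CDH2 NM_001308176 (5.93 treated, 10.4 untreated) and CDH24 NM_022478 (0.878 treated, 2.99 untreated), while the major record of each of these genes has overlapping bounds.

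CDH2 has 2 records, which start at different first exons on chromosome 18. NM_001792, the longer one of 4335 bases, starts at the far exon and was at 16.2 FPKM (deposited bounds 14.4 to 18.0) treated and 13.9 FPKM (12.2 to 15.7) untreated. NM_001308176, of 3855 bases, starts inside the gene and was at 5.93 FPKM (4.64 to 7.22) treated and 10.4 FPKM (8.73 to 12.1) untreated. The record with the far start held 73.2% of the gene's FPKM treated and 57.2% untreated. The records share 3739 bases, and 116 bases belong to NM_001308176 alone, so the division rests on the fragments over these bases and over the 596 bases of NM_001792 alone. The coding bases of the first exons are shown as a part of what sets the records apart, and those of NM_001792 encode the start of the signal peptide.
CDH2 NM_001308176, chr18:28036470-28036548, minus strand: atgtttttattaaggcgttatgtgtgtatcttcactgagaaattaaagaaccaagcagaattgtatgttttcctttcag
CDH2 NM_001792, chr18:28176963-28177022, minus strand: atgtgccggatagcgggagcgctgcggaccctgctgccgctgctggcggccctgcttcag

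The RefSeq windows listed for these starts also differed. That of the far start, chr18:28177081-28177380, had 67.0% G and C and 23 CpG in 300 bases, and that of the internal start 40.7% and 4 CpG. NM_001792 begins at base 28177446 as deposited, so the far window lies within the span of this record and not upstream of it. The internal window lies upstream of NM_001308176, so the windows are not like for like. The letters TATAAA, looked for on both strands, were found once in the internal window and not in the far one. They occur on either strand in 11.5% of all 35116 windows. The 250 bases before the internal start, from RefSeq on GRCh38.p14, are shown with TATAAA in capitals.
CDH2 internal start, chr18:28036642-28036891, minus strand: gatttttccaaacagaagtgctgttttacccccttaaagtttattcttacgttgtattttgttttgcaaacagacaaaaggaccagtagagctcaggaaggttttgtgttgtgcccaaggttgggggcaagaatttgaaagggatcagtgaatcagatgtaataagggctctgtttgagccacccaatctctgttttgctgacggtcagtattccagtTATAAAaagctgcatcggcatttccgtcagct
This motif too was chosen after the windows were read.

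CDH24 has 2 records that differ by 1 coding exon of 114 bases. NM_022478, which contains the exon, was at 0.878 FPKM (0.342 to 1.41) treated and 2.99 FPKM (1.99 to 3.98) untreated, 7.003% of the gene's FPKM treated and 21.2% untreated. NM_144985, which lacks it, was at 11.7 FPKM (10.1 to 13.2) treated and 11.1 FPKM (9.43 to 12.7) untreated. The bounds of the record with the exon did not overlap between libraries and those of the record without it did. The exon is shown because only fragments over it, or over the junction that skips it, tell the records apart.
CDH24 exon of 114 bases, chr14:23051970-23052083, minus strand: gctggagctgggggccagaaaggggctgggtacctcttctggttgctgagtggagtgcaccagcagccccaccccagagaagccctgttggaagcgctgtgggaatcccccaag

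For PCDHGC3 and CDH13 the listed level of a short record was higher in the treated library. PCDHGC3 NM_032403, with a first exon of 145 bases where NM_002588 has 2545, was at 6.73 FPKM (4.85 to 8.62) treated and 2.40 FPKM (1.21 to 3.59) untreated. It has 0 bases that NM_002588 lacks. NM_002588 was at 19.0 FPKM treated and 19.4 untreated, so the higher sum of the gene in the treated library came from the short record. CDH13 NM_001220491, of 938 bases, was at 4.00 FPKM (1.83 to 6.16) treated and 0.803 FPKM (0 to 1.91) untreated, with overlapping bounds, and NM_001257, of 4021 bases, at 14.1 FPKM treated and 12.8 untreated. Without records under 1000 bases, a setting chosen after seeing the data, the log2 ratio of CDH13 was 0.14. CDH4 had 2 records over 1 FPKM, at 1.74 and 1.49 FPKM treated and 1.44 and 1.59 FPKM untreated, and PCDHGA11 had 1, at 4.21 FPKM treated and 3.87 untreated. The bounds of these 3 records overlapped between libraries.

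The best expressed of the partners that link cadherins to the cytoskeleton were at higher levels than any cadherin. Of 16 catenins and adaptors 12 were over 1 FPKM, with a median log2 ratio of -0.01, 6 above 0 and 6 below, and 0 reached 1.5-fold. CTNNA1, alpha-catenin, was at 167 FPKM in the treated and in the untreated library. CTNNB1, beta-catenin, was at 91.8 FPKM treated and 97.1 untreated, a ratio of 0.946 (0.890 to 1.004). CTNNAL1, an alpha-catenin relative, was at 113 FPKM treated and 124 untreated, a ratio of 0.911 (0.856 to 0.970), and VCL, vinculin, at 94.0 FPKM treated and 87.8 untreated, a ratio of 1.07 (1.02 to 1.12). The neuronal alpha-catenin CTNNA2 was listed at 0 in both libraries. The farthest ratio above 0 in the list was that of AJUBA, a LIM protein of adherens junctions, at 34.7 FPKM treated and 31.4 untreated. The interval of the ratio lay above 1 for 2 of the 12 genes and below 1 for 1. Among all genes over the floor, 6.66% lay above and 6.16% below. For the genes of this and the following lists only FPKM ratios are given, which rest on how fragments were divided among records. Their ratios of fragments per depth are not given, so intervals that leave out 1 were not checked by that measure.

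Other adhesion genes were present beside the classical cadherins. Of 12 desmosomal genes 6 were over 1 FPKM, with a median log2 ratio of 0.03, led by DSP, desmoplakin, at 12.8 FPKM treated and 12.9 untreated, and DSG2, desmoglein 2, at 12.5 FPKM treated and 11.7 untreated. The plakophilins PKP3 and PKP2 were at 7.56 and 4.98 FPKM treated and at 8.28 and 3.91 FPKM untreated, and PERP and DSC3, desmocollin 3, at 4.28 and 4.43 FPKM treated and at 4.66 and 3.96 FPKM untreated. All 6 intervals of the ratio included 1. Of 19 other genes of the cadherin superfamily 9 were over 1 FPKM, with a median of 0.08, 7 above 0 and 2 below. CLSTN1, calsyntenin 1, was at 36.7 FPKM treated and 35.9 untreated, and CELSR1, a planar polarity cadherin, at 9.49 FPKM treated and 9.30 untreated. CLSTN3, CELSR2 and DCHS1 were at 12.6, 8.03 and 2.28 FPKM treated and at 13.4, 8.14 and 1.93 FPKM untreated. CELSR3 had the largest log2 ratio of that list, at 3.69 FPKM treated and 2.87 untreated, a ratio of 1.28 (1.08 to 1.53). The interval lay above 1 for 2 of the 9 genes and below 1 for 0, against 6.66% and 6.16% of all genes over the floor. In each of these lists 0 genes reached 1.5-fold.

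Nectins are immunoglobulin-type adhesion proteins that sit with cadherins in adherens junctions. Of 9 nectin and nectin-like genes 6 were over 1 FPKM, with a median log2 ratio of -0.06, 2 above 0 and 4 below, and 0 reached 1.5-fold on the scale with the pseudocount. NECTIN2, listed as PVRL2, was at 58.5 FPKM treated and 60.7 untreated. PVR, the poliovirus receptor, was at 23.7 FPKM treated and 16.9 untreated from 502 fragments treated and 395 untreated. Its FPKM ratio was 1.40 (1.23 to 1.60), and its ratio of fragments per depth is not given. CADM1, a nectin-like adhesion protein, was at 1.56 FPKM treated and 2.77 untreated, a ratio of 0.562 (0.384 to 0.822). CADM4 was at 14.8 FPKM treated and 15.5 untreated, and NECTIN3 at 9.10 FPKM treated and 7.75 untreated. PVR and CADM1 were named for the size of their ratios, and their intervals left out 1, as those of 6.66% of all genes over the floor did above 1 and 6.16% below.

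Cadherins are trimmed by furin-like enzymes and shed by surface proteases, and gamma-secretase cuts the remnant. Of 23 genes of cadherin processing and shedding 16 were over 1 FPKM and 4 were listed at 0 in both libraries, the median log2 ratio was 0.03, 9 were above 0 and 7 below, and 0 passed 1.5-fold. ADAM9 was at 85.5 FPKM treated and 79.2 untreated, APH1A, a gamma-secretase subunit, at 85.3 FPKM treated and 87.0 untreated, MMP14 at 45.6 FPKM treated and 43.2 untreated, and ADAM15 at 46.0 FPKM treated and 46.7 untreated. ADAM17, a sheddase, was at 13.0 FPKM treated and 15.2 untreated, a ratio of 0.857 (0.734 to 1.001). ADAM10, the main sheddase of N- and E-cadherin, was at 24.4 FPKM treated and 24.8 untreated. It was named after its value was seen. PSEN2, a presenilin, was at 2.39 FPKM treated and 1.46 untreated, a ratio of 1.64 (0.936 to 2.95), which includes 1. The interval of ADAM9, with a ratio of 1.08 (1.02 to 1.15), was the only 1 of the 16 to leave out 1. Among all genes over the floor, 6.66% had an interval above 1 and 6.16% below.

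Several repressors of the E-cadherin gene were expressed in both libraries. Of 19 genes of this list, which also holds epithelial splicing factors, 9 were over 1 FPKM, with a median log2 ratio of -0.13, 2 above 0 and 7 below, and 0 reached 1.5-fold. TCF3, a basic helix-loop-helix factor, was at 69.4 FPKM treated and 70.7 untreated, FOXC2 at 19.8 FPKM treated and 23.2 untreated, TWIST1 at 18.2 FPKM treated and 15.1 untreated, and TWIST2 at 13.6 FPKM treated and 15.9 untreated. ZEB2 was at 5.13 FPKM treated and 3.83 untreated, a ratio of 1.34 (1.12 to 1.59), and SNAI1 at 4.94 FPKM treated and 6.77 untreated, a ratio of 0.730 (0.507 to 1.06). The interval of ZEB2 lay above 1, the only 1 of the 9 genes to leave it out, and that of SNAI1 included 1. Among all genes over the floor, 6.66% had an interval above 1 and 6.16% below.

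Genes that act on the protocadherin clusters were all expressed. CTCF and cohesin hold promoters and enhancers of the clusters together, and DNA methylation and SETDB1 act against their expression. All 18 of these genes were over 1 FPKM, with a median log2 ratio of 0.02, 10 above 0 and 8 below, and 0 past 1.5-fold. RAD21, a cohesin subunit, was at 184 FPKM treated and 199 untreated, a ratio of 0.924 (0.887 to 0.962), and CTCF at 16.4 FPKM treated and 18.8 untreated, a ratio of 0.876 (0.768 to 0.998). TRIM28, a corepressor that works with SETDB1, was at 190 FPKM treated and 177 untreated, a ratio of 1.07 (1.02 to 1.12). The interval was thus below 1 for 2 of the 18 genes and above 1 for 1. Among all genes over the floor, 6.16% lay below and 6.66% above. SETDB1, with the largest absolute log2 ratio of the list, was at 11.3 FPKM treated and 13.0 untreated, a ratio of 0.872 (0.738 to 1.03). DNMT1, the maintenance methyltransferase, was at 48.8 FPKM treated and 46.6 untreated, and SMC3, of cohesin, at 53.2 FPKM treated and 55.5 untreated.

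Of 20 genes whose proteins bind or act below protocadherin tails, 17 were over 1 FPKM, with a median log2 ratio of -0.02, 5 above 0 and 12 below, and 0 past 1.5-fold. RACK1, a scaffold protein listed as GNB2L1, was at 1593 FPKM treated and 1615 untreated. The WAVE complex subunits NCKAP1 and BRK1 were at 58.4 and 128 FPKM treated and at 60.4 and 122 FPKM untreated. WASF3, a WAVE protein, was at 3.03 FPKM treated and 4.45 untreated, a ratio of 0.680 (0.526 to 0.890), and AXIN1 at 14.99 FPKM treated and 18.4 untreated, a ratio of 0.813 (0.706 to 0.938). PPP1CA, a phosphatase subunit, was at 154 FPKM in the treated and in the untreated library. The interval lay below 1 for 4 of the 17 genes, WASF3, AXIN1, WASF2 and ROCK1, and above 1 for 0, where 6.16% of all genes over the floor lay below and 6.66% above. WASF2, another WAVE protein, was at 39.0 FPKM treated and 43.1 untreated, and ROCK1, a kinase of actin contraction, at 8.43 FPKM treated and 9.86 untreated. WASF3 and AXIN1 were named for the size of their ratios, and WASF2 and ROCK1 after their values were seen.

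**Figure D5:**
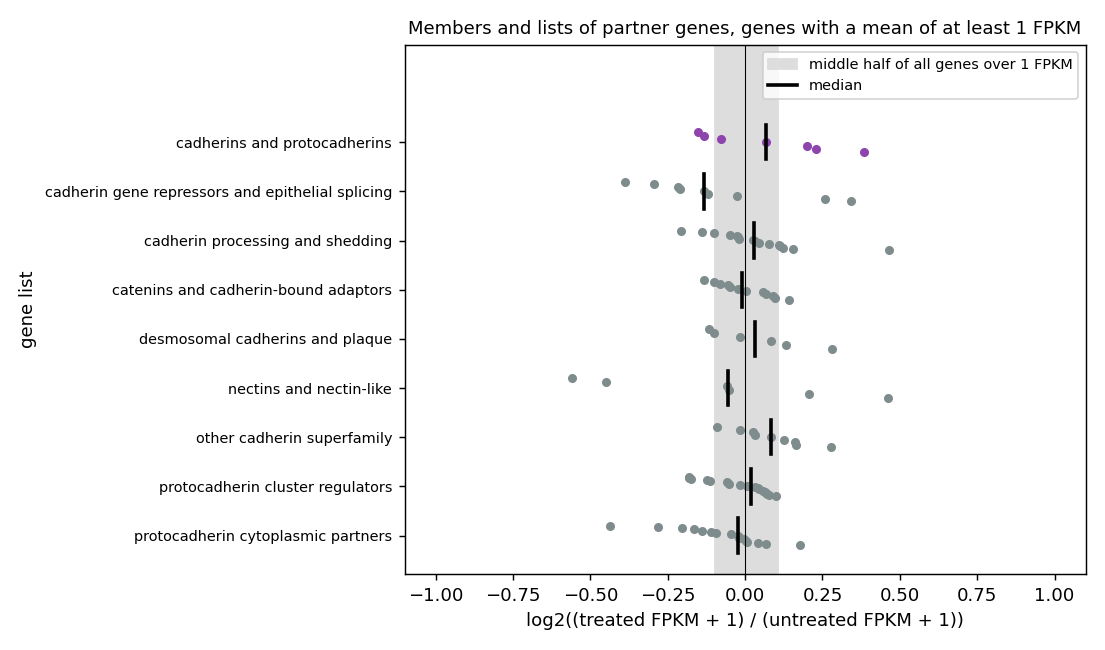
Log2((treated FPKM + 1)/(untreated FPKM + 1)) of each gene that averaged 1 FPKM or more, for the cadherins and protocadherins and for 8 lists of partner genes. Each point is a gene, black bars are medians and the grey band holds the central quartiles of all genes over 1 FPKM. The medians run from -0.13 for the repressors to 0.08 for the other cadherin superfamily, and no gene lies past 1.5-fold.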

How the data were processed

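RNA was measured in 1 library of treated and 1 of untreated CHME3 cells. TopHat, Cuffdiff and the build hg38 are named in the submitters' processing notes; versions and strand are not given in the sources used here. The deposited files name Cufflinks as source and hold the authors' FPKM per RefSeq record with a lower and an upper bound, in a text field, so the unit was recorded as other than a numeric column. The score per record, deposited by the authors, was not used.

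FPKM was summed per gene. Genes averaging 1 FPKM or more were compared by log2 of FPKM + 1 and called at 2-fold, a rule of size without a test. Fragments were recovered from the bounds as the square of 2 × FPKM over the distance to the upper bound. In genes with 1 record, 21.3% of 5992 treated and 21.1% of 5931 untreated values were whole within 0.01, so these are estimates. A straight line fitted to fragments per FPKM against length gave the depth. From it the fragments of all genes were computed, those with 1 record included. The recovered values served only to fit and check the line. Intervals cover counting error only, not the division of fragments among records or copies, nor PCR duplicates. The rule and the depth estimate were tested on simulated data.

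The members and gene lists were chosen with earlier results of these data known. Named are every member over 1 FPKM, those just below, every type I cadherin, and from each list up to 4 genes with the highest mean and up to 2 with the largest absolute log2 ratio; any other gene was named with its value known. Of the genes that this rule takes, 1 is not reported here. Alternatives varied pseudocount, floor, size rule, records summed and scaling. Computations used Python 3.11.15 with scipy 1.17.1.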

Additional observations from a re-analysis of the deposited data

How the results depend on the processing

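The count of members past 2-fold was 0 under all alternatives run, the 1.5-fold rule included. The alternative without a floor kept the pseudocount of 1, with which members averaging under 0.5 FPKM cannot reach 2-fold. The members over the floor numbered between 7 and 10 under the alternatives other than a floor of 5 FPKM, which left 4. Their median log2 ratio was 0.15 instead of 0.07 with both libraries rescaled to TPM, where 10 members passed the floor. With a floor of 0.5 FPKM and no rescaling, 10 members also passed and the median was 0.13. CDH4, whose log2 ratio was the median of the 7 members, was at 0.08 with TPM and at 0.07 without it. The cause of the shift was not tested further. With the most abundant record of each gene alone, the ratio of the sums was 0.992 for gamma protocadherins (1.18 with all records), 1.15 for type I (0.927) and 1.04 for type II (0.888), and the log2 ratios of PCDHGC3, CDH2 and CDH24 were -0.03, 0.21 and 0.07. For the CDH genes outside types I and II the ratio was 1.15 by fragments per depth and 1.13 without records under 1000 bases, both chosen after seeing the data, against 1.34. The log2 ratio of CDH13 was 0.18, 0.14 and 0.13 by fragments, without short records and with the most abundant record alone. Scalings moved the median of all genes by less than 0.02. Sums of beta and nonclustered protocadherins and the named members CDH3, CDH4, PCDHB5, PCDHGA11 and PCDHGC5 kept their direction under the alternatives run. No paired analysis was possible because each group has 1 library, and for the same reason no library could be left out.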
